A study of Mus musculus with 2 samples.

Results

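The 10 genes described here encode the machinery of the bone-resorbing osteoclast and the ligand system that makes osteoclasts form. All 10 were found by symbol, each on a single row, among the 32285 genes of the count matrices. *Tnfsf11* encodes RANKL, the ligand that drives myeloid precursors towards the osteoclast. *Tnfrsf11b* encodes osteoprotegerin (OPG), a secreted decoy that binds RANKL, and *Tnfrsf11a* encodes RANK, the receptor. *Oscar* is an immunoglobulin-like co-receptor of osteoclasts. *Dcstamp* and *Ocstamp* encode membrane proteins needed for the fusion of precursors into multinucleated cells. *Atp6v0d2* encodes a subunit of the proton pump. *Acp5* encodes tartrate-resistant acid phosphatase (TRAP), and *Ctsk* encodes cathepsin K, the protease that degrades bone collagen. *Calcr* encodes the calcitonin receptor, through which calcitonin restrains osteoclasts.

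Osteoclasts arise from the monocyte lineage by fusion, under the influence of macrophage colony-stimulating factor and RANKL. Osteoblast-lineage and marrow stromal cells, and some lymphocytes, are known sources of RANKL, and the balance of RANKL and OPG sets how many osteoclasts form. In a healing fracture, osteoclasts remove mineralised cartilage and remodel the new bone.

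The data were 2 droplet-based 3′ single-cell RNA-seq libraries of tdTomato-sorted cells from Clec3b.creERT2; Ai14.R26.tdTomato mice. In these mice tamoxifen activates Cre in cells that express *Clec3b*, and the tdTomato mark then persists in their progeny. Tamoxifen was given 2 weeks before a stabilised fracture of the right femur at 6 weeks of age, and tissue was taken 3 weeks after surgery, at 9 weeks of age. The callus library came from the fracture calluses, and the intact library from unfractured femoral diaphyses with the muscle around them, each pooled from 3 littermates before collagenase digestion and sorting. Condition and library therefore cannot be told apart, and no test, p-value or standard error between conditions is given. All intervals below are exact 95% intervals for counting error only, and CPM means unique molecular identifiers (UMIs) of a gene per 1000000 UMIs of the cells named.

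The mice were labelled male, but 78.1% of 599 intact and 89.8% of 2064 callus cells with at least 5000 UMIs carried *Xist*, the transcript that coats a silenced X chromosome. The 4 Y-linked genes looked up held 1 UMI in the intact and 0 in the callus library. Only 1 barcode was shared by the libraries. Of 1872 deposited intact and 3987 callus cells, 1207 and 3295 were kept, with 500 or more genes detected and no more than 10% of UMIs from mitochondrial genes. Their median depths were 4939 and 6843 UMIs. Although the cells were sorted for tdTomato, most were haematopoietic, and this share was not examined further. The paper reported little tdTomato expression in the haematopoietic and endothelial clusters, took them for artefacts of the sort and excluded them. The osteoclast-like, other myeloid and lymphoid cells below are therefore not to be read as *Clec3b* progeny, nor their shares as shares of the tissue. Stromal shares likewise describe the sorted cells and not the tissue. The tdTomato mRNA itself was not analysed here.

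The genes lie on 9 chromosomes of GRCm38, each a protein-coding gene, and *Tnfrsf11b* and *Dcstamp* share chromosome 15. RefSeq (GRCm38.p6) windows of the 250 bases before a transcription start were found for 6 of the 10 genes. The 4 windows below belong to TRAP, cathepsin K and the co-receptor, which the osteoclast-like cells carried, and to RANKL, which they did not. Capitals mark the NFAT core GGAAA and the PU.1 core GGAAGT, searched on both strands together with the AP-1 site TGANTCA. NFATc1 and PU.1 are transcription factors of osteoclasts.
Acp5, chr9:22130599-22130848, minus strand: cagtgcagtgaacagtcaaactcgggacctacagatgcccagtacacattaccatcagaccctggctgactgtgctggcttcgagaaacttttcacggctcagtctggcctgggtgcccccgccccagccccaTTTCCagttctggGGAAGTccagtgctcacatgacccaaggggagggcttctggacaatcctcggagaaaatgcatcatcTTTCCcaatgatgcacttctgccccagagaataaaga
Ctsk, chr3:95498960-95499209, plus strand: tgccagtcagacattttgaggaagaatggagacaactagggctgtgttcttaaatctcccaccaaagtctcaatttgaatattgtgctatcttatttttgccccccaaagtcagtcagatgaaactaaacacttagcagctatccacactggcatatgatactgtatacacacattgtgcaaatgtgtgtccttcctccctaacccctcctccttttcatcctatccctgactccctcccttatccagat
Oscar, chr7:3616158-3616407, minus strand: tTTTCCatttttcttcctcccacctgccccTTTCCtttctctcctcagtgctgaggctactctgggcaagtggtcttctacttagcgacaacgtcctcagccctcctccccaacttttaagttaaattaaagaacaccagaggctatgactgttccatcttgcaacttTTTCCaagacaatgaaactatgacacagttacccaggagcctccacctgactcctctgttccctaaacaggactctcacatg
Tnfsf11, chr14:78308044-78308293, minus strand: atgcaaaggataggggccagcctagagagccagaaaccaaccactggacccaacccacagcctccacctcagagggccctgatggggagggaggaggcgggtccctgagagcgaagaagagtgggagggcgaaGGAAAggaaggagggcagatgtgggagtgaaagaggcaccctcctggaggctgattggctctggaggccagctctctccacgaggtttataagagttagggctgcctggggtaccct

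The *Acp5* window, which is 1 of 3 for that gene and belongs to a start inside the annotated gene, held 2 NFAT cores and 1 PU.1 core. It is the richest of the 3. The other *Acp5* windows, including that before the annotated 5′ end, each held 1 NFAT core and 0 PU.1 cores. The *Tnfrsf11a* window, not printed, held none of the motifs searched. The *Oscar* window held 3 NFAT cores, the *Tnfsf11* window 1, and the *Ctsk* window none of the 3 motifs. These letters are common: 55.57% of 32851 windows of the same length held the NFAT core, 19.74% the PU.1 core and 6.749% the AP-1 site. A match is a description of the letters and not of binding.

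Osteoclast-like cells were found in the callus library only. They did not form a cluster of their own, so they were picked cell by cell. A cell needed at least 4 of 10 osteoclast markers that are not among the described genes, with *Slc9b2*, a sodium-proton exchanger of osteoclasts, and *Mmp9*, a matrix protease, among them. This gate was set after the cells had been seen, and it was tightened by requiring *Mmp9* once 2 cells of other types had passed it. It took 12 of 3295 callus cells, or 0.364% (0.188 to 0.635), and 0 of 1207 intact cells, which allows a share of up to 0.249%. The shares therefore did not separate beyond counting error. The 12 cells were deep, with a median of 33029 UMIs (range 7116 to 56252). The gate counts markers with a UMI, so it passes deep cells more readily, and the intact library was the shallower. How far the gate set this depth was not tested.

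*Acp5* was carried by all 12 cells. In order of their number of osteoclast markers, from 9 to 4, the cells held 645, 340, 155, 252, 406, 157, 223, 44, 218, 140, 34 and 30 *Acp5* UMIs. Scaled to 10000 UMIs per cell, the level ran from 12.5 to 354 with a median of 67.1. The lowest 3 counts were in cells with 6 or fewer markers.

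*Ctsk* was carried by 11 of the 12 cells, with 784, 360, 311, 199, 433, 203, 321, 27, 317, 46, 0 and 10 UMIs in the same order. The median was 79.7 per 10000 UMIs (0 to 280). The 3 cells with the fewest markers held between 0 and 46 *Ctsk* UMIs, and the 4 with the most held 199 or more.

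*Atp6v0d2* was carried by all 12 cells, with 94, 42, 32, 14, 64, 22, 55, 7, 46, 16, 7 and 5 UMIs. Its median was 10.6 per 10000 UMIs (2.00 to 23.4).

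The fusion genes were more uneven. *Dcstamp* was found in 8 of the 12 cells, with 28, 11, 4, 0, 32, 5, 6, 0, 10, 1, 0 and 0 UMIs. *Ocstamp* was found in 9, with 28, 10, 3, 3, 18, 1, 2, 0, 13, 3, 0 and 0 UMIs. The 3 cells without *Ocstamp* also lacked *Dcstamp*, and the same pair of cells held the highest counts of both genes. The deepest 3 of the 12 held 68.0% of the *Dcstamp* and 59.3% of the *Ocstamp* UMIs.

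The receptors were low. *Tnfrsf11a* was found in 11 of the 12 cells, with 14, 4, 4, 2, 0, 4, 7, 1, 2, 8, 4 and 2 UMIs. The only cell without RANK was also the deepest, with 56252 UMIs and 406 *Acp5* UMIs. *Oscar* was found in 7 cells, all among those with at least 6 markers, with 2, 2, 7, 2, 4, 1 and 1 UMIs. *Calcr*, *Tnfsf11* and *Tnfrsf11b* were at 0 in all 12 cells.

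Of the 7 genes that osteoclasts carried, 5 cells held all 7 and 4 held 6, and all 9 were osteoclast-like. Elsewhere in the 4502 kept cells, 3492 cells carried none, 931 carried 1 and 61 carried 2. Of 5 cells with 3 of the genes 1 was osteoclast-like, and of 4 cells with 4 genes 2 were. The others, all from the callus, did not pass the gate, so carrying 3 or 4 was not particular to osteoclast-like cells.

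**Figure D1:**
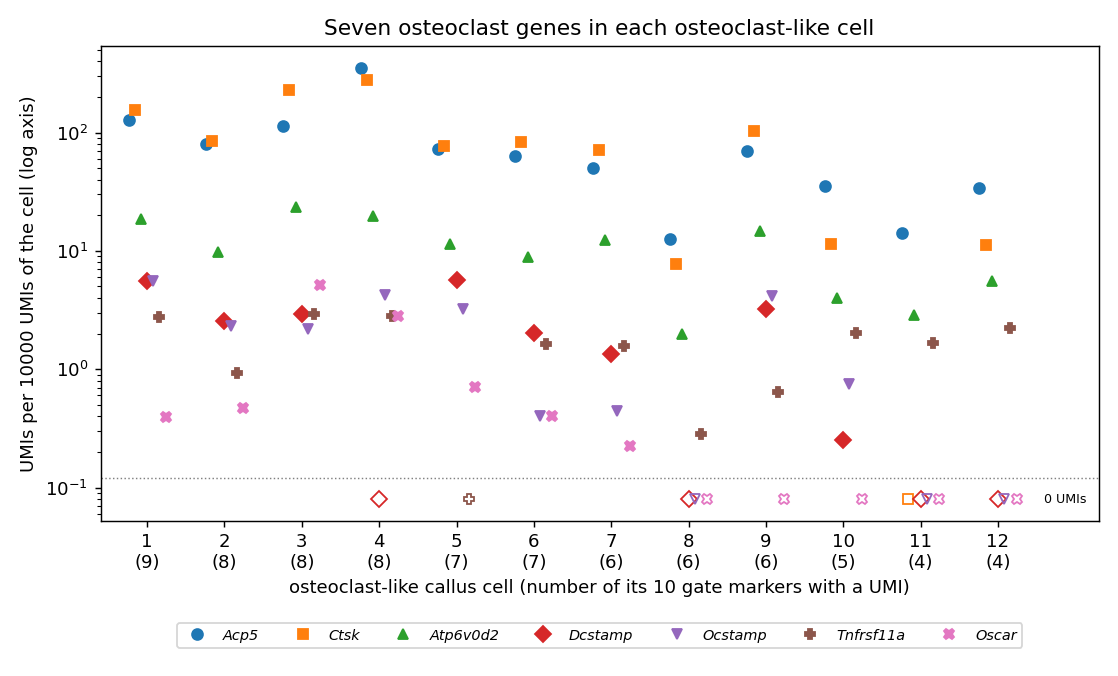
UMIs per 10000, on a log axis, of the 7 osteoclast genes in each of the 12 osteoclast-like callus cells, ordered by their number of osteoclast markers, with open symbols for 0 UMIs. *Acp5* and *Atp6v0d2* were present in every cell, and *Dcstamp*, *Ocstamp* and *Oscar* were missing from several of the cells with few markers.

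The markers of other cell types were low in these cells, with exceptions in single cells. All 8 osteoblast markers were at 0, and the fibroblast list held 8 UMIs, with *Dcn*, *Col3a1*, *Pdgfra*, *Lum*, *Clec3b* and *Ly6a* at 0. The summed fibroblast level was 11.2 CPM at the median (0 to 57.0), against 24449 in the Pi16-type fibroblasts. Of 8 macrophage markers 4 were at 0, among them *Mrc1* and *Folr2*. The monocyte list held 162 UMIs from 5 of its 7 genes, at a median of 252 CPM (0 to 1055), against 7251 in monocyte-like cells. The immature neutrophil, erythroid and B lists reached at most 141, 171 and 200 CPM in a cell. All 8 neutrophil markers were detected, summing to 79.0 to 3336 CPM in the 12 cells, against a median of 370801 in neutrophil-like cells. The highest belonged to the cell with 44 *Acp5* UMIs, which carried 52 *S100a8*, 50 *S100a9*, 40 *Il1b* and 25 *Mki67* UMIs. The part of other cells' RNA in the values of that cell was not tested.

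These few cells held most of the resorption transcripts of the callus library. They accounted for 78.7% (77.3 to 80.1) of its *Acp5* UMIs and 74.3% (73.0 to 75.7) of its *Ctsk* UMIs. The share was 90.6% for *Atp6v0d2*, 93.1% for *Ocstamp* and 90.5% for *Oscar*, or 19 of 21 UMIs. It was lower for *Dcstamp*, at 53.9%, and for *Tnfrsf11a*, at 30.4%. Summed over the 12 cells, the levels were 6979 CPM for *Acp5* (6715 to 7250), 7947 for *Ctsk* (7666 to 8236) and 1066 for *Atp6v0d2* (965 to 1176). For the fusion genes they were 256 CPM for *Dcstamp* (208 to 312) and 214 for *Ocstamp* (170 to 266), and for the receptors 137 for *Tnfrsf11a* (103 to 180) and 50.1 for *Oscar* (30.2 to 78.3).

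The difference between whole libraries turned on them as well. *Acp5* was at 97.9 CPM over all callus cells and at 21.1 CPM once the 12 cells were set aside, against 16.4 CPM in the intact library. *Ctsk* was at 118 CPM over all callus cells and at 30.7 without them, against 39.0 in the intact library, so its direction turned when 12 of 3295 cells were left out. These whole-library values mix cell types. Stromal cells, the main other carriers of *Ctsk*, were 23.8% of intact and 8.80% of callus cells. Within Pi16-type fibroblasts and tenocyte-like cells the callus level of *Ctsk* was the higher, as given below.

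**Figure D2:**
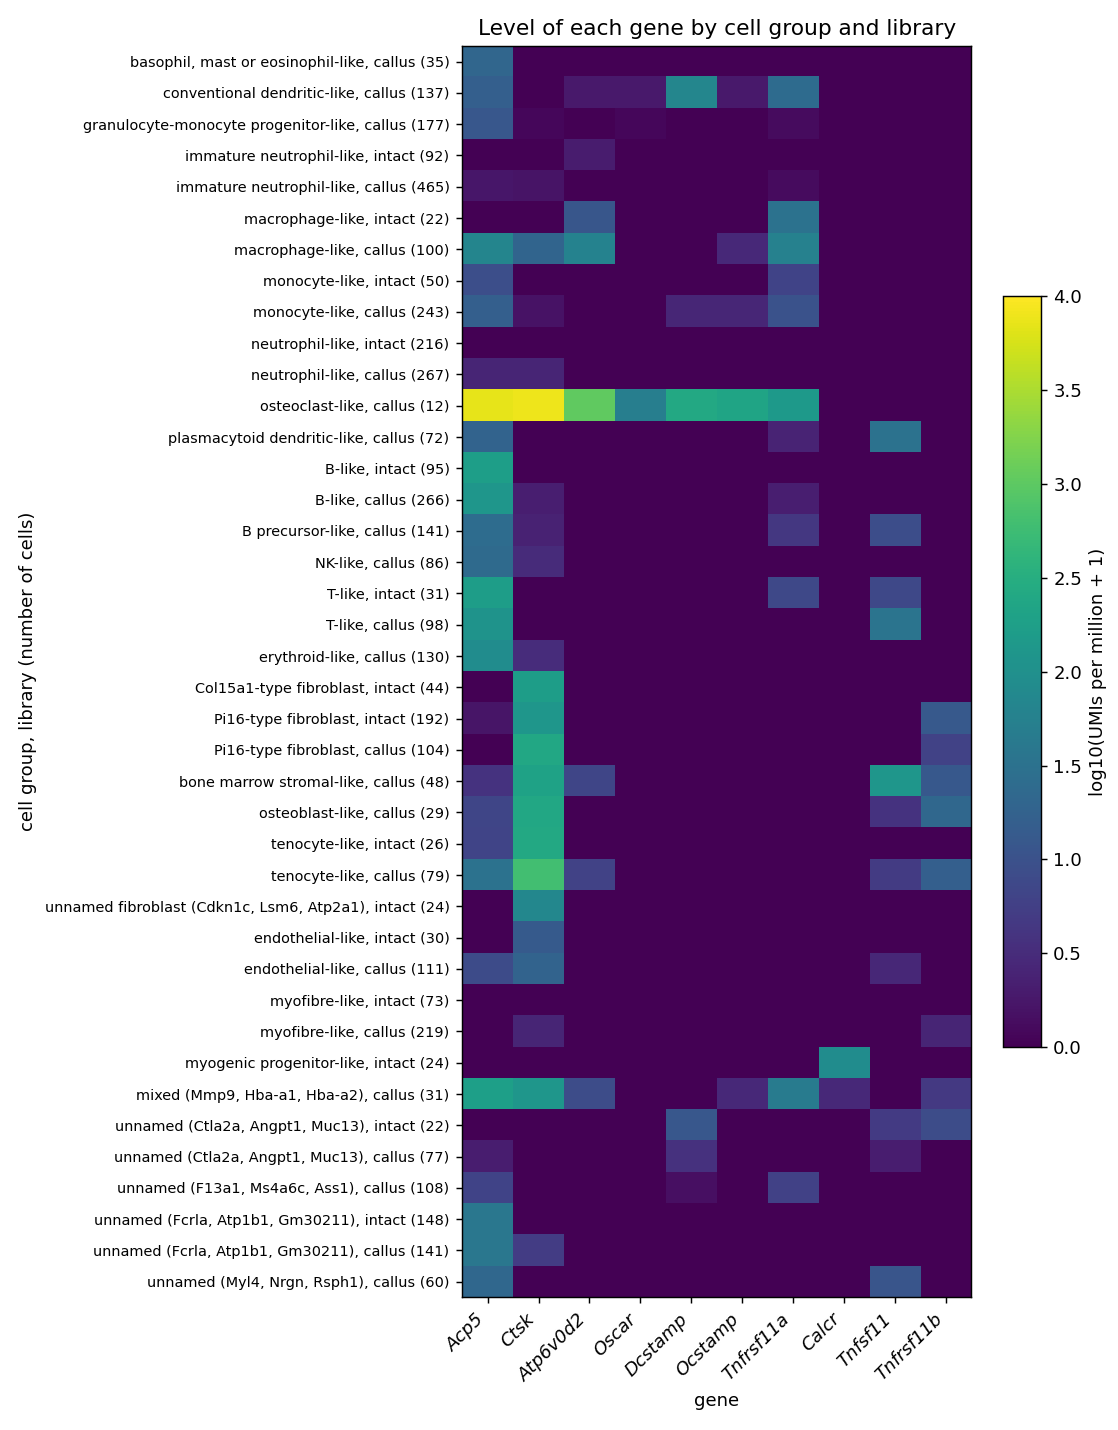
Level of the 10 genes in each group of at least 20 cells, by library, and in the 12 osteoclast-like cells, as the log10 of CPM with 1 added, shown by colour. *Ctsk* spread over the stromal groups, *Acp5* over lymphoid and erythroid groups, and *Oscar* and *Ocstamp* stood out in the osteoclast-like cells.

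The rest of the osteoclast programme was read from 4 lists of other genes, against 343 monocyte-like and macrophage-like cells of the callus. The comparison counts genes with at least 20 UMIs and is between cells of a single library, so it has no test. The gate genes among them had to be high. Of all 8305 genes counted, 15.2% were at least 2-fold higher in the osteoclast-like cells and 26.8% at least 2-fold lower, with a median log2 ratio of -0.21.

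Of the list for acid secretion and matrix resorption, all 29 genes were counted, 20 were at least 2-fold higher and 2 lower, with a median log2 ratio of 2.31. Without the gate genes it was 14 higher and 2 lower of 22, with a median of 1.97. Of the list, 26 genes had at least 20 UMIs in the 12 cells, led by *Mmp9* at 4170 CPM and by *Ckb*, a creatine kinase, at 1457 CPM, both gate genes. The proton pump subunits that led were *Atp6v0c*, at 3806 against 606 CPM, *Atp6v0b*, at 1863 against 514, and *Atp6v1b2*, at 1014 against 201. Some genes outside the naming rule were chosen after their values were seen. *Car2*, the carbonic anhydrase that supplies protons, was at 383 against 2.62 CPM and present in 12 of 12 cells, a ratio of 146 (65.5 to 405). The lysosomal protease *Ctsb* was lower, at 0.29 of the reference level (0.24 to 0.34), and so was the pump subunit *Atp6v0a1*, at 0.14 (0.017 to 0.52), on 2 UMIs.

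The list for RANK signalling and osteoclast transcription was mixed. Of 30 genes 29 were counted, 6 were at least 2-fold higher and 11 lower, with a median log2 ratio of -0.61. The genes at the highest level were *Fos*, at 2919 against 4450 CPM, the adaptor *Tyrobp*, at 2038 against 2853, the transcription factor *Jdp2*, at 842 against 14.8, the adaptor *Fcer1g*, at 794 against 2903, and *Spi1*, which encodes PU.1, at 705 against 421. *Jdp2* was present in 12 of 12 cells, with a ratio of 56.7 (39.8 to 83.3). Among genes chosen after their values were seen, *Prdm1*, a repressor that silences anti-osteoclastic genes, was 16.4-fold higher (12.4 to 21.9). *Nfatc1*, the master transcription factor of osteoclasts and a gate gene, was at 573 against 48.5 CPM. The kinase *Src*, needed for the ruffled border, held 45 UMIs in 9 cells against 1 UMI in the reference.

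None of the 9 brakes on osteoclast formation was at least 2-fold higher, and 6 were lower, with a median log2 ratio of -3.20. *Irf8*, a factor that holds precursors back, was at 7.92 against 268 CPM, on 3 UMIs. Brakes with at least 20 UMIs in the 12 cells included *Id2*, at 185 against 111 CPM, *Tnfaip3*, at 121 against 108, and *Cyld*, at 63.3 against 58.9. Of the ligand and regulator list, 1 gene of 23 had at least 20 UMIs in the 12 cells. It was *Il1b*, with all 40 UMIs in the cell that carried *S100a8*.

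Outside these 12 cells, RANK was found along the macrophage and dendritic lines. *Tnfrsf11a* was at 55.8 CPM (37.6 to 79.6) in 100 callus macrophage-like cells, where 26 carried it, and at 31.7 in 22 intact ones, on 3 UMIs. It was at 24.2 CPM (15.9 to 35.2) in 137 callus dendritic-like cells and at 20.2 in 19 intact ones. Monocyte-like cells held 9.13 CPM (5.22 to 14.8) in the callus and 5.41 in intact tissue. The interval of the callus macrophage-like cells lay above that of the dendritic-like cells, and that of the dendritic-like cells above that of the monocyte-like cells. No RANK UMI was found in neutrophil-like cells or in the 577 stromal cells.

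A further 6 callus cells carried 24 *Tnfrsf11a* UMIs without passing the gate. They came from a cluster that mixed markers of several types and was left without a name. It had 48 cells before the gate took osteoclast-like cells from it, and 38 after. The 6 cells held 0 to 39 *Acp5* and 0 or 1 *Ctsk* UMIs, and 1 of them 36 *Nfatc1* and 44 *Jdp2* UMIs. None carried *Slc9b2*.

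Single cells of other myeloid groups carried fusion or pump genes. *Dcstamp* held 74 UMIs in 17 of 137 callus dendritic-like cells, at 66.3 CPM (52.1 to 83.3), and 6 UMIs in 2 of 19 intact ones, at 40.3 CPM (14.8 to 87.8). The callus level was 25.1 CPM (15.7 to 38.0) with cells taken by marker gates, and the group did not form at 200 genes, at Leiden resolution 0.5 or without the cells of highest doublet score. It was concentrated, with 24 and 13 UMIs in single cells and 55 in the 5 cells with at least 5 UMIs. Of the 9 callus cells of this group with *Xcr1* or *Clec9a*, markers of type 1 dendritic cells, 3 carried it with 19 UMIs, and of the 128 without, 14 carried it with 55 UMIs. *Atp6v0d2* held 31 UMIs in 5 of 100 callus macrophage-like cells, at 57.6 CPM (39.2 to 81.8), of which 29 were in 3 cells with *Folr2*. With each library clustered alone this level was 35.2 CPM (24.5 to 49.0). In the intact library it held 1 UMI in 22 macrophage-like cells. *Ocstamp* and *Oscar* held only 6 and 2 UMIs outside the osteoclast-like cells.

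**Figure D3:**
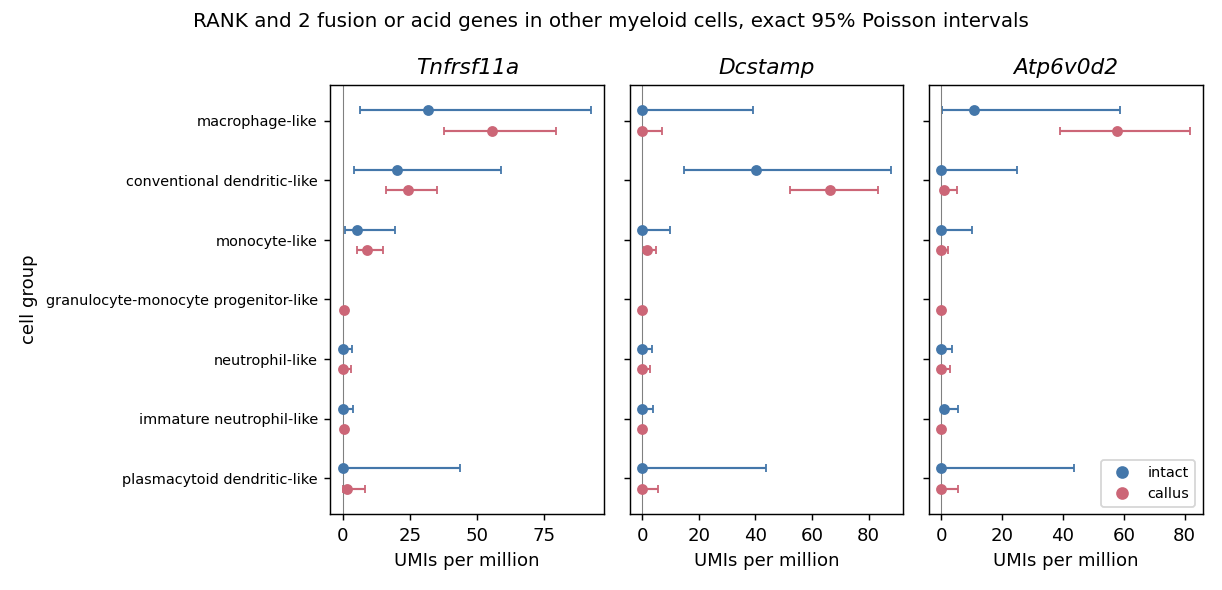
CPM of *Tnfrsf11a*, *Dcstamp* and *Atp6v0d2* in myeloid groups other than osteoclast-like cells, with exact 95% Poisson intervals. RANK was highest in macrophage-like cells, *Dcstamp* in dendritic-like cells and *Atp6v0d2* in macrophage-like cells of the callus. Of the 100 callus macrophage-like cells, 5 carried *Atp6v0d2*.

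Cathepsin K was also a stromal transcript. In the callus it was at 605 CPM (552 to 662) in 79 tenocyte-like cells, 247 in both the osteoblast-like cells (211 to 287) and the Pi16-type fibroblasts (213 to 285), 215 in Col15a1-type fibroblasts (144 to 309) and 201 in bone marrow stromal-like cells (156 to 255). The tenocyte-like interval stood above the other 4, which overlapped. Neutrophil-like cells, which should lack the gene, held 1.57 CPM in the callus, on 2 UMIs.

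Between libraries, the *Ctsk* interval lay above equality in Pi16-type fibroblasts and in clustered tenocyte-like cells, and included it in Col15a1-type fibroblasts. In Pi16-type fibroblasts, which are marked by *Pi16* and *Dpp4*, it was at 247 CPM in 104 callus cells against 124 CPM (106 to 143) in 192 intact cells. This was a ratio of 1.997 (1.62 to 2.47), which ran from 1.67 to 2.48 under other processing. Among 8483 genes counted in these cells, 2.97% were at least 2-fold higher in the callus, a limit that *Ctsk* narrowly missed. The ratio was 1.86 (1.39 to 2.47) within the subcluster led by *Ptx3* and *Il6* and 2.37 (1.71 to 3.30) within the subcluster led by *Dact2*. With every cell thinned to 2000 UMIs, 37.2% (27.5 to 47.8) of callus and 18.6% (13.2 to 25.2) of intact Pi16-type cells carried it, and 64.4% and 52.6% without thinning.

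In tenocyte-like cells *Ctsk* was at 605 against 254 CPM (186 to 339), a ratio of 2.38 (1.76 to 3.30). There 14.2% of 6214 genes were at least 2-fold higher, and with cells taken by marker gates instead of clusters the ratio was 1.39 (0.84 to 2.48), an interval that includes equality. The callus and intact members of this group also differed in other genes. *Wnt16* was at 38.7 CPM (26.1 to 55.3) against 0, and *Lifr* at 27.1 (16.8 to 41.4) against 77.3 (42.3 to 130). Whether the group held the same mix of cells in both libraries was not tested. In Col15a1-type fibroblasts the ratio was 1.29 (0.79 to 2.08), and from 0.88 to 1.82 under other processing, with 16 callus and 44 intact cells and 4.82% of 3755 genes at least 2-fold higher. With 1 library per condition, none of these ratios has a replicate check.

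Among the groups with a name, TRAP was next found in lymphoid and erythroid cells. The mixed cluster, without the osteoclast-like cells taken from it, held 183 CPM of *Acp5* (149 to 223) in the callus. This rested on 99 UMIs in 11 of 31 cells, and its 7 intact cells held 0. The 6 cells with *Tnfrsf11a* described above belong to this cluster and held 3, 8, 26, 0, 14 and 39 of these UMIs. *Acp5* was at 174 CPM (129 to 229) in 95 intact B-like cells and 126 (103 to 152) in 266 callus ones, a ratio of 0.73 (0.51 to 1.04). In T-like cells it was at 169 CPM (110 to 247) in 31 intact and 113 (88.8 to 143) in 98 callus cells, a ratio of 0.67 (0.42 to 1.10). Both intervals include equality. Of 6038 genes in B-like cells 4.27% were at least 2-fold lower in the callus, and of 4993 in T-like cells 4.31%. *Acp5* was found in T-like cells with *Cd8a* and without it, in 24 of 39 and 23 of 59 callus cells. Erythroid-like cells held 86.0 CPM (71.0 to 103) in the callus and 64.4 (33.3 to 112) in intact tissue, where 2 of 13 cells carried all 12 UMIs.

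In macrophage-like cells *Acp5* was at 65.1 CPM (45.3 to 90.5) in the callus, on 35 UMIs in 21 of 100 cells, and at 0 in the 22 intact cells, which allows up to 31.7 CPM. Neutrophil-like cells, which should lack it, held 1.57 CPM in the callus and 0 in intact tissue. Unlike cathepsin K, TRAP was rare in stroma, and the highest stromal level was 31.0 CPM, in callus tenocyte-like cells.

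**Figure D4:**
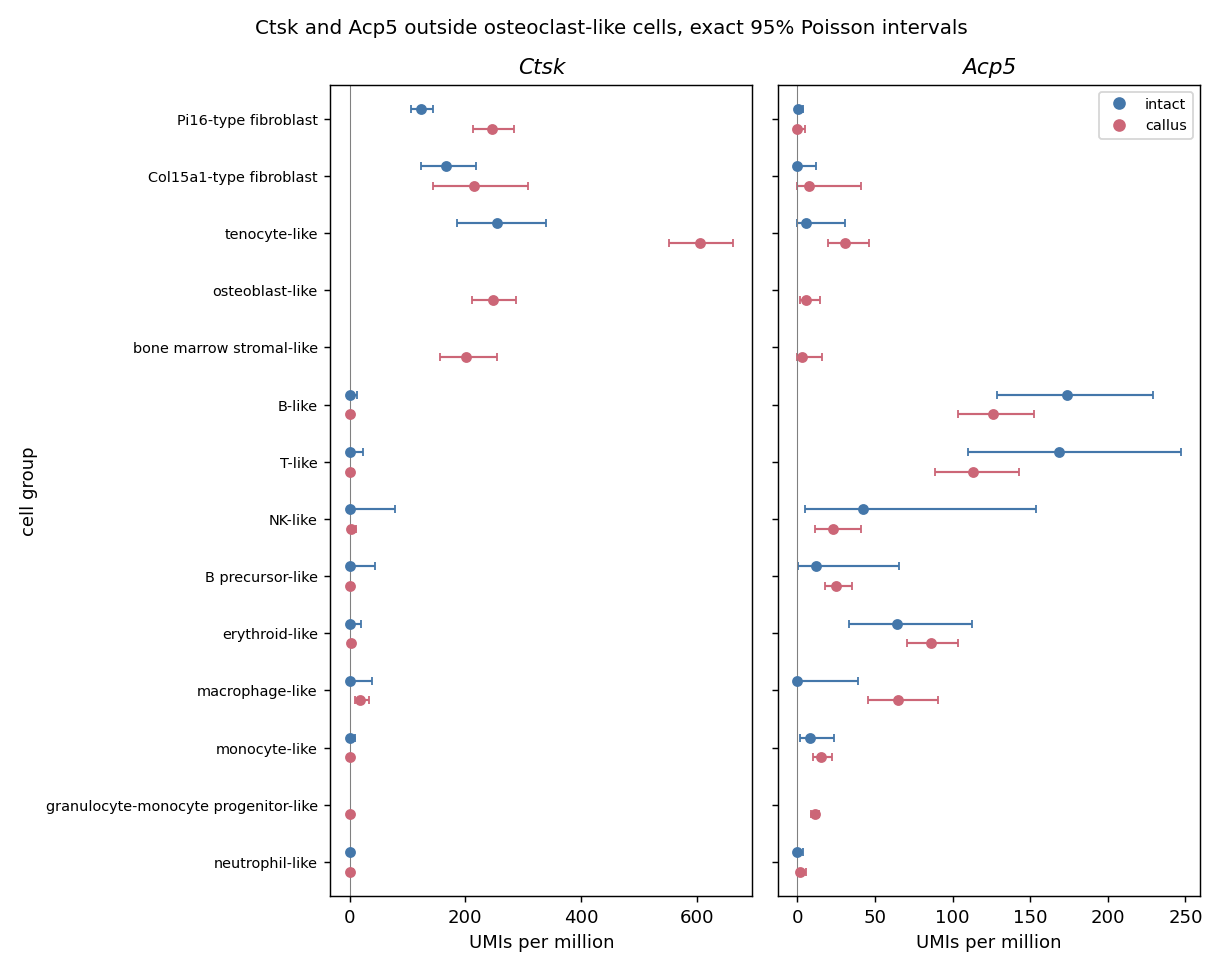
CPM of *Ctsk* and *Acp5* in named cell groups other than osteoclast-like cells, by library, with exact 95% Poisson intervals. Among the groups plotted, which leave out the mixed cluster, *Ctsk* was highest in callus tenocyte-like cells, and *Acp5* in intact B-like and T-like cells.

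The calcitonin receptor marked a muscle population. All 15 intact *Calcr* UMIs were in 10 of 24 myogenic progenitor-like cells, at 86.0 CPM (48.1 to 142). Of these 10 cells 9 carried *Pax7*, the transcription factor of muscle stem cells, as did 22 of all 24. *Pax7* was also among the markers that named the group. In the callus, 2 UMIs were in 1 of 15 cells of this group, at 17.5 CPM (2.12 to 63.1), and 1 UMI was in the mixed cluster. The callus members of this group differed from the intact ones, as 5 of 15 carried the mural marker *Rgs5* and 0 of 24 intact cells did. With 12 osteoclast-like cells, of which none held a *Calcr* UMI, the gene was not detectable in them at this depth.

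RANKL was at its highest level in marrow stroma of the callus, although most of its UMIs lay in other cells. *Tnfsf11* held 116 UMIs in 53 callus cells and 2 UMIs in 2 intact cells. Bone marrow stromal-like cells, which carry *Lepr* and *Adipoq*, held 43 of the callus UMIs, or 37.1%, at 125 CPM (90.7 to 169). Here 21 of 48 cells carried it, with 1 to 4 UMIs each, and 20.9% did after thinning to 2000 UMIs. None of 267 callus neutrophil-like cells carried it, which allows up to 2.36 CPM. The paper found no tdTomato-marked cells in uninjured marrow or endosteum. No cell of the intact library fell in the bone marrow stromal-like group, so the libraries could not be compared there. Within it, *Tnfsf11* was found in 19 of 40 cells with *Lepr*, 19 of 43 with *Adipoq*, and 16 of 30 with *Spp1* against 5 of 18 without, though the cells with *Spp1* were deeper, with medians of 7830 and 4215 UMIs.

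Other stromal groups held little RANKL. Osteoblast-like cells held 2 UMIs, tenocyte-like cells 3, and the Pi16-type and Col15a1-type fibroblasts none.

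Lymphoid and plasmacytoid cells were the next source. *Tnfsf11* held 21 UMIs in 10 of 98 callus T-like cells, at 33.1 CPM (20.5 to 50.6), and 1 UMI in 31 intact ones. The callus level was 13.5 CPM (5.81 to 26.5) with cells taken by marker gates. It was carried by 0 of 39 callus cells with *Cd8a* and 10 of 59 without. Of the 21 UMIs, 14 were in 7 cells with *Cd3e* and 7 in 3 cells without it. The highest of the latter held 5 *Tnfsf11*, 20 *Gata3* and 13 *Il7r* UMIs. In plasmacytoid dendritic-like cells 21 UMIs were in 5 of 72 callus cells, all with *Il7r*, and the 2 of them without *Siglech* held 13 of the UMIs. That level, 31.2 CPM (19.3 to 47.7), ran from 12.3 to 48.9 CPM under other processing. B precursor-like cells held 11 UMIs in 6 cells, 5 of them in a single cell. A further 12 were in a cluster led by *Myl4*, with 8 in a cell that carried 3072 *S100a8* UMIs.

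OPG was sparse and stromal, at 57 UMIs in 38 cells, of which 35 were stromal. *Tnfrsf11b* held 14 UMIs in 6 of 29 osteoblast-like cells, at 20.5 CPM (11.2 to 34.3), but 9 of the 14 were in a single cell. Callus tenocyte-like cells held 12 UMIs in 8 of 79 cells, at 15.5 CPM (7.999 to 27.0), and the 26 intact ones held none. Bone marrow stromal-like cells held 4 UMIs in 3 cells. In Pi16-type fibroblasts it was at 12.1 CPM (7.03 to 19.3) in intact tissue, on 17 UMIs in 13 of 192 cells, and at 5.25 CPM (1.43 to 13.4) in the callus, on 4 UMIs in 4 of 104 cells. The ratio was 0.43 (0.11 to 1.33), so no difference was detectable at this depth, beside 3.02% of genes at least 2-fold lower. Pi16-type fibroblasts held 89.5% of the intact OPG UMIs. The intact library held 1 osteoblast-like and 0 bone marrow stromal-like cells, so this is a share of the sorted cells and not of bone. The intervals of the osteoblast-like, tenocyte-like and bone marrow stromal-like cells overlapped.

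RANKL and OPG were each found in few cells. Among the 4502 kept cells, 55 carried *Tnfsf11*, 38 carried *Tnfrsf11b* and 2 carried both. With so few carriers, these counts do not show that the genes lie in separate cells. At these counts an absent UMI does not show an absent transcript.

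**Figure D5:**
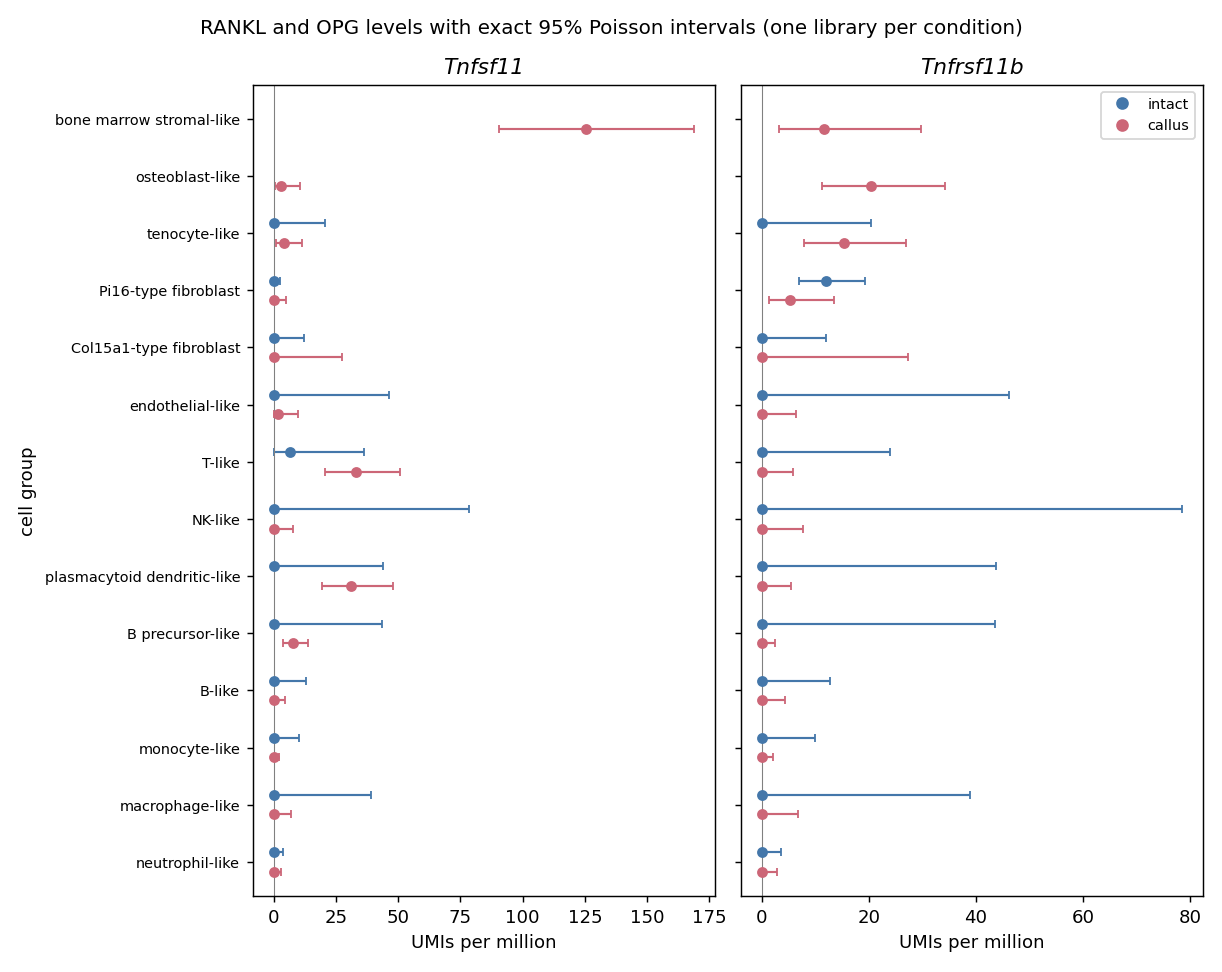
CPM of *Tnfsf11* and *Tnfrsf11b* by cell group and library, with exact 95% Poisson intervals. *Tnfsf11* was highest in callus bone marrow stromal-like cells, at 125 CPM, and *Tnfrsf11b* was at 20.5 CPM or less in the stromal groups with a name.

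Further ligands and regulators of osteoclast formation were read in the same stromal groups, from a list of 23 genes. In bone marrow stromal-like cells 11 had at least 20 UMIs. Those at the highest level were the cytokine receptor *Lifr* at 1073 CPM (966 to 1188), the transcription factor *Runx2* at 417 (351 to 491), *Csf1*, the macrophage colony-stimulating factor, at 324 (266 to 390), the parathyroid hormone receptor *Pth1r* at 239 (190 to 297) and *Il6st*, the shared receptor subunit of the interleukin 6 family, at 189 (146 to 241). These cells held both *Csf1* and *Tnfsf11*, the ligands required for osteoclasts.

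Osteoblast-like cells had 8 of the 23 at that count, led by *Pth1r* at 373 CPM (328 to 421), *Lifr* at 344 (301 to 390), *Runx2* at 194 (163 to 230), the osteoblast factor *Sp7* at 177 (147 to 211) and *Tgfb1* at 145 (118 to 176). *Csf1* was lower there, at 17.5 CPM (9.06 to 30.6). Callus tenocyte-like cells had 11, led by *Il6st* at 249 CPM (215 to 287) and *Sfrp1*, a secreted Wnt antagonist that can also bind RANKL, at 240 (207 to 277), and then *Csf1* at 98.0 (77.3 to 123), *Il6* at 83.9 (64.7 to 107) and *Wnt5a* at 68.4 (51.2 to 89.4).

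In intact Pi16-type fibroblasts 11 of the 23 had at least 20 UMIs, led by *Csf1* at 197 CPM (174 to 221), *Il6* at 178 (157 to 202), *Il6st* at 175 (154 to 199), *Wnt5a* at 126 (109 to 146) and the oestrogen receptor *Esr1* at 65.3 (52.7 to 80.1). In the callus, *Csf1* was at 185 CPM (156 to 218), *Wnt5a* at 110 (87.9 to 136) and *Il6* at 231 (198 to 268). Each of these intervals overlapped the intact one. In Col15a1-type fibroblasts 6 of the 23 had at least 20 UMIs in intact tissue and 2 in the callus, with *Lifr* at 394 CPM (327 to 471) and 378 (281 to 497).

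The genes most like each member were ranked by Pearson's r of log2(CPM + 10) over 39 groups of at least 20 cells, osteoclast-like cells not included. These values are descriptions, since groups of a library share depth and free RNA. *Ctsk* went with *Shox2* and *Adamts2* at r = 0.97 and with *Fap*, *Col16a1* and *Lum* at 0.96. *Tnfrsf11a* went with *Adgre1* at 0.87, *Serpinb8* at 0.85 and *Trem2* at 0.85. *Atp6v0d2* was ranked with *Ms4a7* at 0.89 and *Ocstamp* with *Mmp12* at 0.90. Both reached 50 UMIs only through the osteoclast-like cells, which held 404 of 448 *Atp6v0d2* and 81 of 87 *Ocstamp* UMIs. The *Ocstamp* value rests on the 6 UMIs outside those cells, so no likeness can be read from it. Of the *Atp6v0d2* UMIs outside those cells, 31 were in callus macrophage-like cells, 29 of them in 3 cells. No likeness can be read from the *Atp6v0d2* value either. *Tnfsf11* was most like *Podnl1* at 0.86, and *Tnfrsf11b* most like *Zfp469* at 0.87, *Cthrc1* at 0.81 and *Pth1r* at 0.80. *Acp5* had weaker companions, led by *Grap2* at 0.73 and *Ccr7* at 0.71. *Dcstamp* was most like *Ccl22* at 0.93 and *Ccl17* at 0.88, but of the 19 dendritic-like cells with *Dcstamp* 0 carried *Ccl22* and 3 carried *Ccl17*.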

How the data were processed

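The authors aligned and counted the reads with Cell Ranger (6.0.0, per the file headers) on mm10 (per the labels) and deposited raw UMI counts per gene and cell for called barcodes. Of the 32285 gene identifiers, 32235 (99.8%) matched GENCODE annotation of GRCm38. Barcodes needed 500 or more genes and no more than 10% of UMIs from mitochondrial genes, which left 4502 cells in all (690 to 65422 UMIs). They were clustered with scanpy (1.11.5; 2000 variable genes without the 10 described, 30 components, 15 neighbours, Leiden resolution 1, stromal cells again at 0.5) and given names, all to be read as "-like", from 28 marker lists. A name needed a mean log2 score of 1.5, or 1 in subclusters, and a lead of 0.5. These limits and the osteoclast gate were set after clusters or cells had been seen. Doublets were not removed in the main analysis. UMIs were summed by type and library, with exact Poisson, Clopper-Pearson and conditional binomial intervals. Only the conditional binomial interval of the ratios was tested on simulated data. Those were Poisson counts, which the interval assumes, so the effect of UMIs concentrated in single cells was not tested. The limit for a count of 0 is 3 counts. Besides the 10 members, from each list the up to 5 genes highest in the type described, with at least 20 UMIs, were named, and the 5 genes most like each member with at least 50 UMIs were ranked, of which the leading ones are given. A gene that the rule would name is not reported here. The members and lists were chosen with earlier results of these data known. 11 alternatives were planned and 3 added after seeing the data.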

Additional observations from a re-analysis of the deposited data

Results flagged for a closer look

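A further callus cell passed the osteoclast gate but was left out of all values above because 12.9% of its UMIs were mitochondrial. It held 24320 UMIs and 9 of the 10 osteoclast markers, with 191 *Acp5*, 263 *Ctsk*, 34 *Atp6v0d2*, 7 *Dcstamp*, 6 *Ocstamp* and 2 *Tnfrsf11a* UMIs. *Oscar*, *Calcr*, *Tnfsf11* and *Tnfrsf11b* were at 0 in it. No intact cell removed for its mitochondrial share passed the gate. It was listed because its *Acp5* and *Ctsk* signals lie in data outside the main measurement.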

How the results depend on the processing

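Of 246 values recomputed under 14 alternatives, 203 stayed within the main interval or 1.5 times the main count, 43 moved, and no ratio whose interval excluded equality changed direction. The *Ctsk* ratio in Col15a1-type fibroblasts, which included equality, fell to 0.88 at Leiden resolution 0.5. The number of osteoclast-like cells ran from 8 to 14 in the callus and was 0 in the intact library throughout. The gate acts on single cells after clustering, so Leiden resolution, clustering each library alone and marker gates could not change these cells. Their counts, CPM and shares under those settings were fixed in advance, and are among the 203 values that stayed. Requiring 1000 or more genes and no more than 5% of UMIs from mitochondrial genes gave 63.1% of callus *Acp5* and 57.8% of callus *Ctsk* in osteoclast-like cells, at 4928, 5794 and 874 CPM of *Acp5*, *Ctsk* and *Atp6v0d2*. The gate without *Mmp9* gave 5899, 6745 and 904 CPM. The gate of at least 6 markers gave 7976, 9660 and 1229 CPM and 72.7% and 72.9% of the callus UMIs. The *Ctsk* share was 75.8% with up to 20% mitochondrial UMIs and 76.3% without the cells of highest Scrublet score, which removed 12 intact and 87 callus cells and no osteoclast-like cell. That removal also took the *Ctsk* ratio in Pi16-type fibroblasts to 2.48, and marker gates took it to 1.67 and the tenocyte-like ratio to 1.39. The share of Pi16-type cells with *Ctsk*, callus and intact, was 8.51% and 3.95% when 2 UMIs were required, 64.4% and 52.6% without thinning, and 26.0% and 10.6% at 1000 UMIs. The cause of these changes was not tested. 8 values could not be given because a group did not form, among them the *Ctsk* ratio in Pi16-type fibroblasts with each library clustered alone. No paired analysis was possible because each condition has a single library. Depth limits *Oscar*, *Calcr* and OPG most, at 21, 18 and 57 UMIs in all.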
